A study of Mus musculus with 20 samples.

Results

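Valine, leucine and isoleucine, the branched-chain amino acids, are broken down in mitochondria by a chain of enzymes, of which 10 genes are described here: the transaminase Bcat2, the dehydrogenase subunits Bckdha, Bckdhb and Dbt, the leucine enzymes Ivd, Mccc1 and Mccc2, the valine enzyme Hibch, and the propionyl-CoA carboxylase subunits Pcca and Pccb. They are taken as a list of names, which was drawn up with earlier results of these data known, and are 10 of the 19505 genes measured with a named probe, each with a single probe. The study measured adipocyte RNA of Olfm2 knockout and wild-type mice on 20 expression arrays, and its subject is the loss of Olfm2, the gene of the secreted glycoprotein olfactomedin 2, from fat cells in obesity. The 4 groups of 5 arrays were Olfm2 knockout and wild-type from the sc depot and the same genotypes from the g depot, where sc and g are the submitters' names of the adipose depots. Per the labels, all were adipocytes obtained from adipose tissue and differentiated in culture. The sources used here do not say how or in which cells the gene was deleted, nor the age and strain of the mice. They also do not state that cultures were separate, so a p-value reflects only how far these samples spread, which may be technical. All levels are log2 signals, on which a difference of 1 is a doubling, and levels of different genes are not compared because each comes from its own probe.

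The pathway begins with the removal of the amino group by a transaminase, mitochondrial Bcat2 in most tissues, which leaves a branched-chain keto acid. The branched-chain keto acid dehydrogenase complex then commits the carbon skeleton to oxidation, and it is switched off by the kinase Bckdk and on by the phosphatase Ppm1k. Separate arms carry the leucine, isoleucine and valine skeletons to acetyl-CoA or, through propionyl-CoA, to succinyl-CoA, and differentiated fat cells are known to run this pathway at a high rate and to use its products for fatty acid synthesis.

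The stretch just before the start of transcription is shown for 3 of the genes: Hibch, which had the largest knockout difference in g and the largest depot difference in wild-type samples, Mccc2, the member called lower in g than in sc in both genotypes, and Pcca, as a window in which no searched motif was found. The 250 bases before the annotated start are from RefSeq, build GRCm38.p6, read 5′ to 3′ on the strand of the gene. Capitals mark GGGCGG, the GC box bound by Sp factors, or CACGTG, the E-box of basic helix-loop-helix factors, on either strand. The Hibch window lies at chr1:52844788-52845037 on the plus strand, that of Mccc2 at chr13:100015640-100015889 on the minus strand and that of Pcca, the first of its annotated starts, at chr14:122484115-122484364 on the plus strand.
Hibch: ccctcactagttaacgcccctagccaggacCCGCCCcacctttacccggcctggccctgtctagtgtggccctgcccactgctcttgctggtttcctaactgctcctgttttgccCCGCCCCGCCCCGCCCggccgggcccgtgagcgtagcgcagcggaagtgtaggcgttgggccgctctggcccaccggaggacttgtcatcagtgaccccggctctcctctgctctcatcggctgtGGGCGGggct
Mccc2: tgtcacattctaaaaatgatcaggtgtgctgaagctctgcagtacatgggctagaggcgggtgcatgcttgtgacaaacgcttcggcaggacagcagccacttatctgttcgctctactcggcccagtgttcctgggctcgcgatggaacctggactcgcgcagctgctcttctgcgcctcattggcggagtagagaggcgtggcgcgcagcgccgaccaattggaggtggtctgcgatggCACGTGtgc
Pcca: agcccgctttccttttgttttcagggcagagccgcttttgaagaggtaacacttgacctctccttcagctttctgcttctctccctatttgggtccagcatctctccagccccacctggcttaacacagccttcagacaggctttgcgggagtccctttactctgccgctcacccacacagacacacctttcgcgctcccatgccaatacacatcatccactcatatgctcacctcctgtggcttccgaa
The Hibch window holds 5 copies of GGGCGG, of which 3 follow each other and share their end bases, and the Mccc2 window holds 1 CACGTG at bases -9 to -4. Over the 12 windows of 9 members in the RefSeq table, GGGCGG was found in 4 (Hibch, Bckdhb, Mccc1 and the second Pcca window), beside 32.7% of all 32851 windows. CACGTG was found in 1 of the 12, beside 6.0% of all windows. CACGCCC, a form of the box read by Kruppel-like factors, and AAGGTCA, a site of nuclear receptors such as the estrogen-related receptors, were found in 0 of the 12, beside 7.5% and 4.1% of all windows. These are matches of letters only. No window of Dbt was used here.

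As a check of the labels, Olfm2 was lower on every knockout array than on every wild-type array of its depot. The sc values were 4.88 ± 0.42 for wild type and 3.22 ± 0.38 for knockout (SD, n = 5; difference -1.66, limma adjusted p = 1.517e-04), and in g 4.34 ± 0.23 and 3.54 ± 0.15 (difference -0.80, adjusted p = 0.0078). The probe was dim, near or below the negative control probes, whose array medians were 4.45 to 4.84, and its position relative to the deleted part is not stated in the labels. Markers of mature adipocytes were high on all 20 arrays (list means of 10.64 to 11.64), but markers of other tissues were also present, although the labels name cultured adipocytes. The mean of 16 hepatocyte markers was above 7 on 8 arrays, of which 2 were wild-type g, 2 knockout sc and 4 knockout g, and at most 5.97 on the others. That of 10 skeletal muscle markers was above 7 on 4 sc arrays, 2 of each genotype: sc286WT (11.38), sc307WT (9.36), sc317KO (7.95) and sc320KO (7.48). The mean of 8 lymphocyte markers was 8.28 on sc286WT, 8.71 on sc317KO and 8.46 on sc320KO and at most 5.62 on the other sc arrays. The mean of the 10 enzymes was lowest in sc on sc286WT (8.12) and highest on sc317KO (8.77) and sc320KO (8.75). These arrays were high in both lymphocyte and skeletal muscle markers, which cannot be told apart on them. The part of either in the enzyme means was not tested. Macrophage markers averaged 8.34 to 8.9951 in sc and 9.10 to 10.41 in g.

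In the g depot all 10 enzymes rose in knockout adipocytes, by 0.49 to 0.82 on the log2 scale, or 1.40-fold to 1.76-fold, with a median of 0.63 beside 0.02 over all genes. Across the genome 5.01% of genes were called higher and 6.27% lower in this comparison, where called means an adjusted p under 0.05 by limma. For 9 of the 10, all but Bckdhb, every knockout array was above every wild-type array, as it was for 4.68% of all genes. In the sc depot 2 of the 10 rose, Bcat2 and Ivd, where 0.297% of genes were called higher and 0.379% lower. The other 8 sc differences were also above 0 but did not pass, the median of the 10 was 0.26, and the arrays did not overlap for 4, beside 1.41% of all genes. The mean of the 10 enzymes was 8.37 ± 0.16 on wild-type and 8.70 ± 0.06 on knockout arrays of sc, and 7.80 ± 0.15 and 8.45 ± 0.23 on those of g (SD, n = 5). In bulk RNA such as this, more RNA per cell and more cells of one type cannot be told apart.

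**Figure D1:**
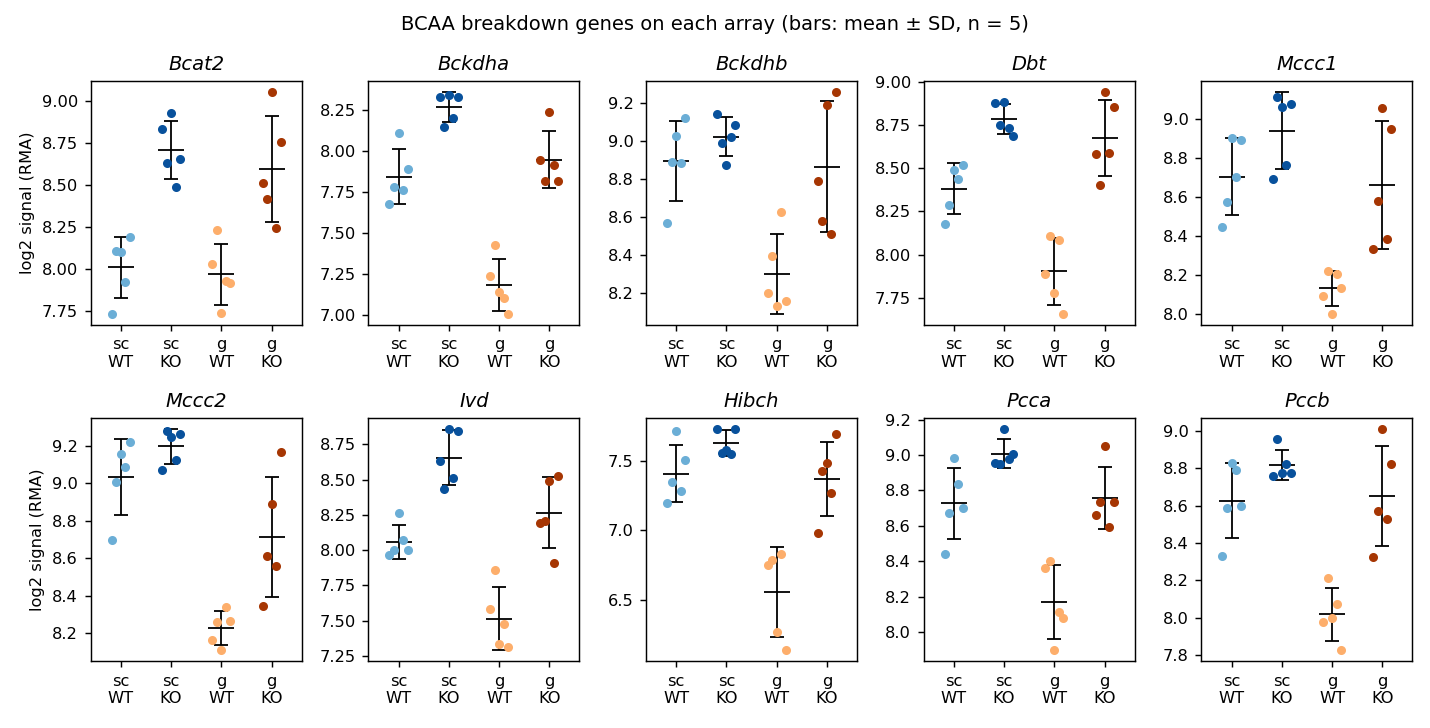
Log2 signal of each of the 10 enzymes (vertical axes, separate scale per gene) on each array of the 4 groups, with 1 point per array and bars for the mean ± SD of 5 arrays. Knockout sc has the highest and wild-type g the lowest mean in all 10 panels.

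Bcat2, the transaminase of the first step, rose in both depots by similar amounts. Its sc signals were 7.74, 8.11, 8.10, 7.92 and 8.19 on the wild-type arrays sc286WT, sc287WT, sc307WT, sc308WT and sc309WT and 8.83, 8.63, 8.93, 8.49 and 8.66 on the knockout arrays sc300KO, sc306KO, sc317KO, sc318KO and sc320KO. Values are given in the order of these numbers throughout, also for g. The wild-type g arrays had 8.03, 8.23, 7.74, 7.93 and 7.92 and the knockout g arrays 8.51, 8.42, 9.05, 8.24 and 8.75. Each knockout array was above all wild-type arrays of its depot, in g narrowly, with the lowest knockout array at 8.24 and the highest wild-type array at 8.23. The differences were 0.70 in sc (SE 0.14, 1.62-fold, adjusted p = 0.0167) and 0.63 in g (SE 0.14, 1.54-fold, adjusted p = 0.0048). Bcat2 is also the member for which wild-type g and sc hardly differed (-0.04, adjusted p = 0.8806, 95% interval -0.33 to 0.24). Its sc call was lost without sc300KO, sc308WT or sc317KO (adjusted p = 0.0571, 0.0567 and 0.0582).

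Of the branched-chain keto acid dehydrogenase, Bckdha and Bckdhb encode the alpha and beta subunits of the decarboxylase and Dbt the transacylase core that holds the complex together. In g, Bckdha was 7.24, 7.42, 7.14, 7.10 and 7.01 in wild-type and 7.94, 7.82, 8.24, 7.92 and 7.82 in knockout arrays, a rise of 0.77 (SE 0.10, 1.70-fold) with the smallest adjusted p of the 10 (1.100e-04). Dbt in g was 7.89, 8.11, 7.78, 8.08 and 7.66 in wild-type and 8.58, 8.40, 8.94, 8.59 and 8.85 in knockout arrays, also a rise of 0.77 (SE 0.11, adjusted p = 2.014e-04). Both genes had gaps between the genotypes wider than the SD of either group. Bckdhb rose by 0.57 (SE 0.14, adjusted p = 0.0131), and it is the member whose g groups overlapped: wild-type arrays reached 8.63, above the 8.58 and 8.51 of g306 KO and g318 KO. In sc, Bckdha was 7.68 to 8.11 in wild-type and 8.15 to 8.34 in knockout arrays, and Dbt 8.18 to 8.52 and 8.69 to 8.88. The sc arrays did not overlap for either gene, yet the differences of 0.43 (adjusted p = 0.0542) and 0.40 (adjusted p = 0.1053) did not pass. Bckdhb differed by 0.13 in sc (adjusted p = 0.8305, 95% interval -0.17 to 0.42), with overlapping groups.

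In the leucine arm, Ivd encodes isovaleryl-CoA dehydrogenase, and Mccc1 and Mccc2 the biotin-carrying and the carboxyl-transferring subunit of methylcrotonyl-CoA carboxylase, which acts on its product. Ivd in g was 7.58, 7.86, 7.34, 7.48 and 7.31 in wild-type and 8.19, 8.21, 8.49, 7.91 and 8.53 in knockout arrays, a rise of 0.75 (SE 0.13, 1.68-fold, adjusted p = 7.680e-04). The wild-type sc arrays had 7.96, 7.9991, 8.27, 8.07 and 8.0015 and the knockout sc arrays 8.63, 8.44, 8.86, 8.51 and 8.85, a rise of 0.60 (SE 0.13, 1.51-fold, adjusted p = 0.0311). The genotypes were apart in both depots. The sc call of Ivd was lost on leaving out any 1 of 7 of the 10 sc arrays: sc286WT, sc287WT, sc308WT, sc309WT, sc300KO, sc317KO or sc320KO. In g, Mccc1 rose by 0.53 (adjusted p = 0.0142) and Mccc2 by 0.49 (adjusted p = 0.0147), the smallest rise of the 10. Mccc2 in g was 8.16, 8.26, 8.11, 8.34 and 8.26 in wild-type and 8.35, 8.61, 8.89, 8.56 and 9.17 in knockout arrays. The groups touch without overlap, with g300 KO just above the highest wild-type array and the knockout arrays spread more widely (SD 0.32) than the wild-type ones (SD 0.09). In sc neither carboxylase gene passed (0.24, adjusted p = 0.5809 and 0.16, adjusted p = 0.7187).

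Hibch, the hydrolase that frees 3-hydroxyisobutyrate from its CoA in the valine arm, had the largest rise in g. It was 6.75, 6.79, 6.27, 6.83 and 6.13 in wild-type and 6.98, 7.43, 7.49, 7.27 and 7.70 in knockout arrays, a rise of 0.82 (SE 0.15, 1.76-fold, adjusted p = 0.0011). The lowest knockout array, g300 KO, was above the highest wild-type array, g308 WT. In sc the arrays overlapped, 7.19 to 7.71 in wild-type and 7.55 to 7.73 in knockout, and the difference was 0.22 (adjusted p = 0.6580).

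Pcca and Pccb, the biotin-carrying and the other subunit of propionyl-CoA carboxylase, serve both the valine and the isoleucine arms. In g, Pcca was 8.36, 8.40, 7.90, 8.12 and 8.08 in wild-type and 8.66, 8.74, 9.05, 8.60 and 8.74 in knockout arrays, a rise of 0.58 (SE 0.11, adjusted p = 0.0020). Pccb was 7.98, 8.21, 7.9981, 8.07 and 7.82 in wild-type and 8.32, 8.57, 9.01, 8.53 and 8.82 in knockout arrays, a rise of 0.64 (SE 0.12, adjusted p = 0.0015). Both subunits were apart between genotypes in g and overlapped in sc, where the differences were 0.28 (adjusted p = 0.3423) and 0.19 (adjusted p = 0.6282).

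**Figure D2:**
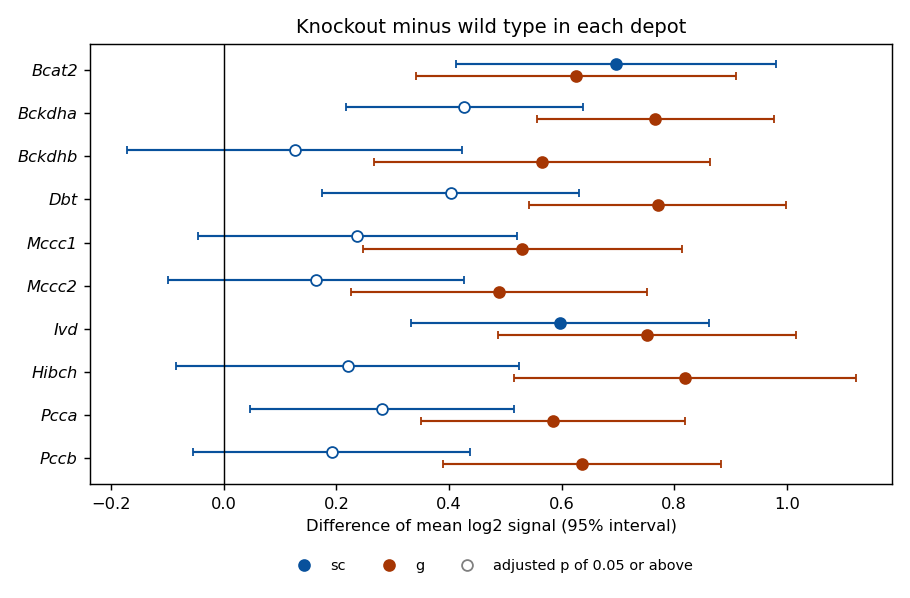
Knockout minus wild-type difference of mean log2 signal (horizontal axis) with 95% intervals for each enzyme in sc and g, filled where the adjusted p was under 0.05. All 10 g points are filled, from 0.49 to 0.82, and in sc those of Bcat2 at 0.70 and Ivd at 0.60.

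Whether the knockout effect differed between the depots was tested directly. The effect in g minus that in sc was above 0 for 9 of the 10, from 0.16 for Ivd to 0.60 for Hibch, and -0.07 for Bcat2. By limma 0 of the 10 were called, where 0.0769% of all genes were. At an unadjusted p under 0.05 there were 5 members, Bckdha, Bckdhb, Dbt, Hibch and Pccb, beside 2537 of all 19505 genes. The smallest adjusted p of the 10 was 0.2356, for Hibch (SE 0.21). The calls in g and their absence in sc for 8 genes are therefore not shown to be a difference between depots.

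Several marker lists moved with genotype in g, as did the enzymes. Of 11 mature adipocyte markers 8 rose in knockout g, and their mean was 10.64 to 11.07 on wild-type and 11.24 to 11.47 on knockout arrays. Of 10 macrophage markers 9 fell and 1, Cd163, rose, with means of 9.96 to 10.41 on wild-type and 9.10 to 9.68 on knockout arrays. All 6 mast cell markers fell, with means of 8.01 to 9.05 and 5.87 to 6.79. None of these means overlapped between the genotypes, so each is confounded with the knockout. With the macrophage mean as a covariate 0 of the 10 enzymes were called in g and the median difference was 0.47. With the mature adipocyte mean 0 were called and the median was 0.25. Of all 19505 genes 1 and 9 were called in these fits, beside 2200 in the main fit, so the loss of calls was not particular to the enzymes. All 10 differences stayed above 0 in both fits, though some came close to it. Over 24 alternatives to the main fit the lowest were 0.0144 for Bckdhb, 0.0817 for Pcca and 0.11 for Bcat2. In sc, 0 of the adipocyte and 1 of the macrophage markers (lower) were called. Of 8 brown adipocyte markers 7 were below 0 in sc and 1, Ucp1, fell (-2.56), with means of 6.70 to 7.01 on wild-type and 6.06 to 6.31 on knockout sc arrays. These means did not overlap either, and their part in the sc rises of Bcat2 and Ivd was not tested. In g, 1 of the 8 brown adipocyte markers also fell and 5 were above 0, with a lowest difference of -2.33. Their g means overlapped, at 5.72 to 6.35 on wild-type and 5.65 to 5.93 on knockout arrays.

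Hepatocyte markers were also higher on average in knockout g, though 0 of 16 were called and the groups overlapped: their mean was 5.12 to 8.40 on wild-type and 5.51 to 9.78 on knockout arrays. Liver is known to run the later steps of this pathway. With the hepatocyte mean as a covariate 7 of the 10 enzymes were called in g, and the median was 0.56. Bckdhb (0.44, adjusted p = 0.0862), Mccc1 (0.50, adjusted p = 0.0612) and Mccc2 (0.43, adjusted p = 0.0771) lost their calls. On g300 KO, the knockout g array with the lowest hepatocyte mean, all 10 enzymes were above every wild-type g array. For Mccc2 this was narrow, 8.35 against at most 8.34. This is 1 array, which also had the highest mature adipocyte mean (11.47) and the lowest mast cell mean (5.87) in g. The part of the hepatocyte transcripts in the g rises was not tested. Dropping the 8 arrays past a hepatocyte mean of 7, the hepatocyte-high arrays, left 1 knockout and 3 wild-type g arrays. Its spread was then taken from the other groups, and 0 of the 10 were called and the median was 0.56. In sc that same exclusion left 1 call, and the hepatocyte covariate left 0 (median 0.23). Leaving out the 4 arrays past a skeletal muscle mean of 7, the muscle-high arrays, also left 0 in sc (median 0.23). All 4 were sc arrays, so the g differences could not change, and 10 were still called in g.

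**Figure D3:**
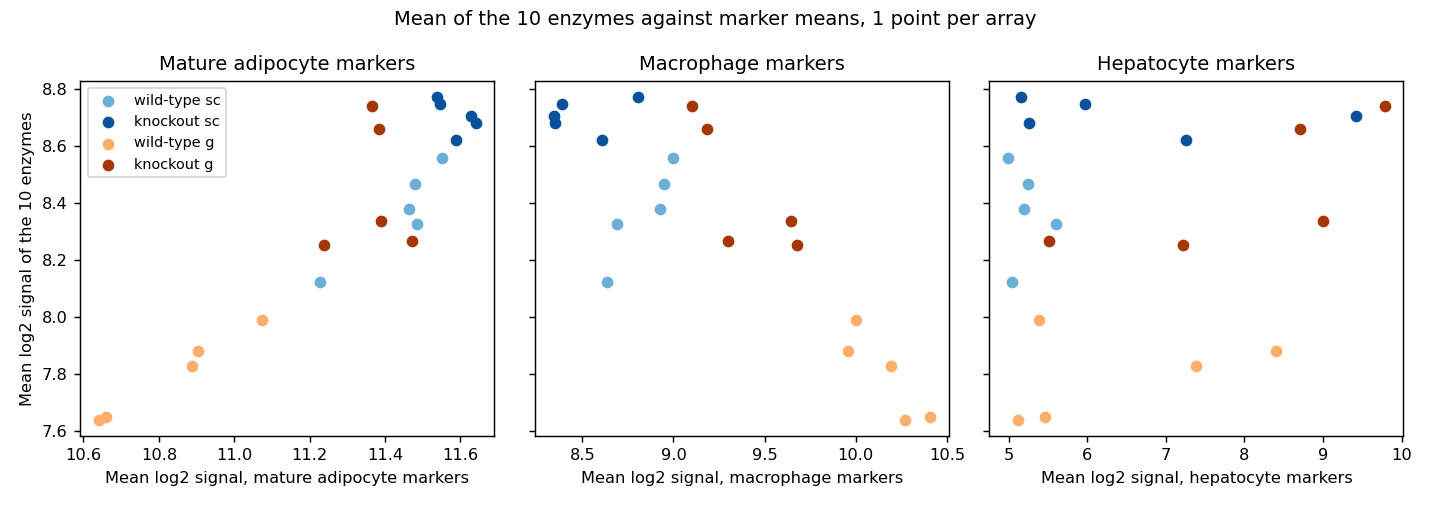
Mean log2 signal of the 10 enzymes (vertical axis) against the mean of mature adipocyte, macrophage and hepatocyte markers (horizontal axes), 1 point per array, coloured by group. Wild-type g arrays have the lowest enzyme and adipocyte means and the highest macrophage means, while hepatocyte means spread from 4.99 to 9.78 across groups.

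The depots were compared within each genotype, which asks whether the enzymes differ between fat of these origins. In wild-type samples 9 of the 10 were lower in g than in sc, all but Bcat2, with a median of -0.59 beside -0.04 over all genes, where 8.48% of genes were called lower and 9.30% higher. For 8 of the 9, all but Bckdhb, every g array was below every sc array, as for 7.36% of all genes. Hibch was lowest relative to sc (-0.86, SE 0.15, 1.81-fold lower, adjusted p = 3.137e-04): its wild-type sc signals were 7.19, 7.35, 7.71, 7.29 and 7.51, all above the highest g array at 6.83. Mccc2 followed (-0.81, SE 0.13, adjusted p = 1.264e-04), with 8.70, 9.0048, 9.16, 9.08 and 9.22 in wild-type sc against at most 8.34 in g. Bckdha was lower by -0.66 (adjusted p = 1.003e-04), Pccb by -0.61, Bckdhb by -0.60, Mccc1 by -0.57, Pcca by -0.56, Ivd by -0.55 and Dbt by -0.48. The markers differed between the wild-type depots as well: 10 of 11 mature adipocyte markers were lower and 9 of 10 macrophage and 5 of 6 mast cell markers higher in g. With the macrophage or the mature adipocyte mean as a covariate 0 of the 10 were called (medians -0.29 and -0.08). With hepatocyte, lymphocyte and skeletal muscle means together, the 3 tissue means, 5 were. Of all 19505 genes 1, 10 and 1660 were called in these fits, beside 3468 in the main fit.

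In knockout samples 1 of the 10 was lower in g than in sc, Mccc2 (-0.48, SE 0.13, 1.40-fold, adjusted p = 0.0322), where 1.27% of genes were called lower and 2.87% higher. Mccc2 in knockout sc was 9.07, 9.28, 9.25, 9.12 and 9.26, and g320 KO at 9.17 lay among these arrays. The other 9 differences were also below 0, from -0.39 for Ivd (adjusted p = 0.0958) to -0.11 for Dbt and Bcat2, and the depots overlapped for all 10. The Mccc2 call was lost on leaving out any of 6 arrays (sc306KO, sc317KO, sc320KO, g300 KO, g306 KO or g318 KO), and Bckdha (-0.32, adjusted p = 0.0823) was called without g317 KO. Of the macrophage markers 8 of 10 were higher in knockout g than in knockout sc, with means of 9.10 to 9.68 against 8.34 to 8.81. Mccc2 lost its call with the macrophage covariate (-0.37, adjusted p = 0.5829), with the mature adipocyte mean (-0.39, adjusted p = 0.1854) or with only these 2 groups in the fit (adjusted p = 0.1416). It was also lost without the hepatocyte-high (-0.92, adjusted p = 0.0551) or the muscle-high arrays (-0.44, adjusted p = 0.1126). The wild-type and knockout depot comparisons use different arrays, and the test of whether they differ is the same as that of the knockout effect between depots, with 0 members called.

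**Figure D4:**
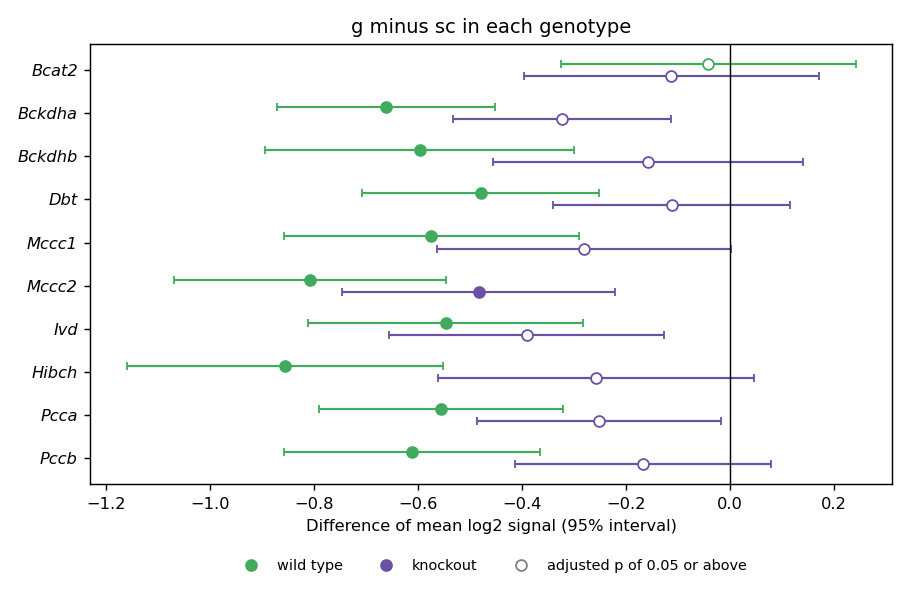
Difference of mean log2 signal, g minus sc (horizontal axis), with 95% intervals for each enzyme in wild-type and knockout samples, filled where the adjusted p was under 0.05. In wild type 9 points are filled, from -0.86 for Hibch to -0.48 for Dbt, and in knockout that of Mccc2 at -0.48.

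Set in order, all 10 enzymes had their highest group mean in knockout sc and their lowest in wild-type g. For 6 of them, Bcat2, Bckdha, Dbt, Ivd, Pcca and Pccb, knockout g stood above wild-type sc, and for Bckdhb, Mccc1, Mccc2 and Hibch below it. The lowest group differed from its neighbour in the order, with a call, for 9 of the 10, all but Bcat2. The highest group did not pass against its neighbour for any of the 10, and knockout g against wild-type sc is a contrast of both genotype and depot that was not tested. For Pcca, the means were 9.01 ± 0.08, 8.76 ± 0.17, 8.73 ± 0.20 and 8.17 ± 0.21 from knockout sc through knockout g and wild-type sc to wild-type g, and the middle groups overlapped. For Bcat2 the knockout groups (8.71 ± 0.17 and 8.60 ± 0.32) and the wild-type groups (8.01 ± 0.18 and 7.97 ± 0.18) formed pairs. Knockout g was the group with the largest SD for 8 of the 10, all but Hibch and Pcca. Within it g317 KO had the highest Bcat2, Bckdha, Dbt, Mccc1, Pcca and Pccb signals and g320 KO the highest of Bckdhb, Mccc2, Ivd and Hibch. The hepatocyte means of these arrays were 9.78 and 8.71. That of g306 KO was 8.9970, and it did not have the highest signal of any member. The part of hepatocyte transcripts in this order of arrays was not tested.

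The enzymes varied together from array to array. All 45 pairs had a Pearson r above 0 over the 20 arrays (median 0.88, from 0.54 for Bcat2 with Mccc2 to 0.95 for Bckdha with Pcca). With each array taken as its deviation from its group mean, all 45 were still above 0, with a median of 0.64, from 0.20 for Bckdha with Mccc2 to 0.89 for Mccc1 with Mccc2, whose products are subunits of one enzyme. The points share the array and its mixture of tissues, so these are descriptions. The mean of the 10 followed that of 15 citric acid cycle genes (r = 0.90, and 0.89 within groups) and mature adipocyte markers (0.92, and 0.59 within groups). It ran against macrophage markers (-0.85, and -0.35 within groups), while hepatocyte markers had 0.22 and 0.36. The 8 genes outside the list whose pattern over the 20 arrays was most like the mean of the 10 were Ces1d, a lipid-hydrolysing carboxylesterase (r = 0.98), Nrg4, a growth factor of the neuregulin family secreted by fat (0.97), Echs1 (0.97), the insulin-signalling kinase Akt2 (0.96), Aldh6a1 (0.96), Klhl2 (0.96), the mitophagy receptor Bnip3 (0.95) and the dystrophin relative Utrn (0.95). Echs1 and Aldh6a1 belong to the valine arm.

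Of 30 other genes of the pathway 28 were measured, and in knockout g 12 rose, 1 fell and 15 did not pass, with a median of 0.26. These 13 calls fell to 0 with the macrophage covariate (median 0.20) and with the mature adipocyte covariate (median 0.05). Of all 19505 genes 1 and 9 were called in these fits, beside 2200 in the main fit. Without the hepatocyte-high arrays, which left 1 knockout g array, the median was 0.23. Later steps made up most of the rises. Of 6 genes listed under the isoleucine and valine arms 5 rose. They were the short branched-chain acyl-CoA dehydrogenase Acadsb (0.58), the hydroxyacyl-CoA dehydrogenase Hsd17b10 (0.54) and the enoyl-CoA hydratase Echs1 (0.52). The others were the hydroxyisobutyrate dehydrogenase Hibadh (0.46) and the methylmalonate semialdehyde dehydrogenase Aldh6a1 (0.76, SE 0.14, adjusted p = 0.0012). Past propionyl-CoA, the epimerase Mcee (0.41) and the mutase Mmut (0.62, SE 0.10, adjusted p = 5.754e-04) rose. Of 3 measured genes listed under the leucine arm the thiolase Acat1 rose (0.52), an enzyme not confined to that arm. The dehydrogenase regulators did not pass: the kinase Bckdk differed by 0.08 (adjusted p = 0.6456, 95% interval -0.11 to 0.28) and the phosphatase Ppm1k by 0.24 (adjusted p = 0.3213). Nor did Dld, the lipoamide dehydrogenase that this complex shares with others (0.15, adjusted p = 0.2785). The cytosolic transaminase Bcat1 stood opposite to Bcat2: in g it was 7.68, 7.95, 7.64, 7.66 and 7.62 in wild-type and 7.48, 7.23, 6.30, 7.39 and 7.51 in knockout arrays. These groups did not overlap, but the difference of -0.53 did not pass (SE 0.21, adjusted p = 0.1158), and g317 KO was far below the others.

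Among carriers, which move the amino acids across membranes, the changes in knockout g went both ways. Slc43a1 (0.61, adjusted p = 0.0164) and the mitochondrial carrier Slc25a44 (0.32, adjusted p = 0.0293) rose, and Slc43a2 fell (-0.62, adjusted p = 0.0030). Of 3 measured transcriptional regulators, Klf15, a factor known to act on amino acid breakdown genes, rose by 1.13 (SE 0.19, adjusted p = 8.308e-04) and the adipocyte regulator Pparg by 0.48 (adjusted p = 0.0025). The coactivator Ppargc1a differed by 0.26 (adjusted p = 0.3934). In sc, 3 of the 28 rose and 0 fell: Slc43a1 (1.0047, adjusted p = 0.0038), Hsd17b10 (0.44, adjusted p = 0.0236) and Klf15 (0.90, adjusted p = 0.0347). Of all 19505 genes 132 were called in sc in the main fit. With the macrophage mean or the 3 tissue means as covariates and without the muscle-high arrays 25, 33 and 45 were. The count of the 28 was 0 in these fits. It was 1 with the hepatocyte or the mature adipocyte covariate, without the hepatocyte-high arrays, and on leaving out sc286WT, sc287WT, sc309WT or sc300KO. Of all genes 85, 174, 155, 150, 60, 79 and 71 were called there, in that order. Calls over all genes thus rose above 132 with the mature adipocyte covariate, without the hepatocyte-high arrays and without sc286WT. Over 24 alternatives Slc43a1 was called in 21, Hsd17b10 in 12 and Klf15 in 10. For 0 of the 28 did the knockout effects of the depots differ with a call. In wild-type samples 11 of the 28 were lower in g, Acat1 most (-0.68), with Dld at -0.46 and Pparg at -0.58. The 3 that were higher were the plasma membrane carriers Slc7a5 (0.64), Slc43a1 (0.63) and Slc43a2 (1.16), while the mitochondrial carrier Slc25a44 was among those lower (-0.37). These 14 calls fell to 0 with the macrophage covariate (median -0.09) and with the mature adipocyte covariate (median 0.10), and to 7 with the 3 tissue means. Of all genes 1, 10 and 1660 were called in these fits, beside 3468 in the main fit. In knockout samples 0 were higher and 3 lower in g, Dld (-0.33), Acat1 (-0.33) and Ppargc1a (-0.67). These 3 calls fell to 0 with the macrophage or the mature adipocyte covariate, where 35 and 489 of all genes were called, beside 806 in the main fit. They also fell to 0 with only the 2 groups in the fit and without g318 KO, and to 1 without sc300KO, g300 KO or g306 KO. Without the hepatocyte-high arrays, which left 1 knockout g array, the median was -0.17.

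**Figure D5:**
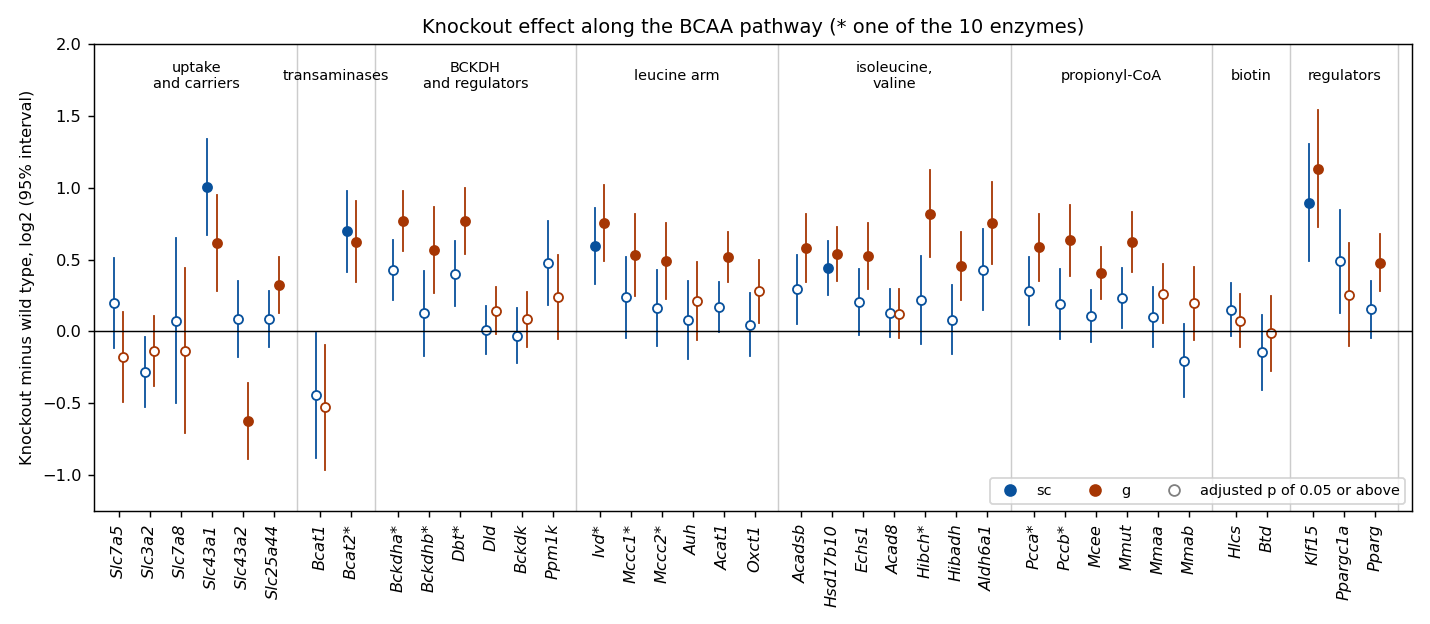
Knockout minus wild-type difference of mean log2 signal (vertical axis) with 95% intervals for the 10 enzymes (asterisks) and 28 other pathway genes in sc and g, in the order of the pathway and filled where the adjusted p was under 0.05. In g the filled points from Bcat2 to Mmut lie between 0.41 and 0.82, while Dld, Bckdk and Ppm1k are open.

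Neighbouring mitochondrial lists give a scale for these differences. Of 15 citric acid cycle genes 4 rose in knockout g, all 15 were above 0 and the median was 0.22, and in sc 0 were called with a median of 0.04. Of 10 genes of the related pyruvate dehydrogenase complex and its regulators 2 rose in g, with a median of 0.11. Between the wild-type depots 13 of the 15 citric acid cycle genes were lower in g (median -0.35), and of the pyruvate dehydrogenase list 4 were lower and 1 higher. The lists were compared by these counts and medians alone, without a test of one list against another.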

How the data were processed

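The labels name the genotype and depot of each sample, and the number in a title is not stated to be that of a mouse. The submitters' processing notes name RMA and limma, and the table the authors deposited holds 1 log2 signal per probe and array, the scale that RMA gives. The sources used here do not give versions, the array build or whether all arrays were normalised together. The design text counts 10 arrays under a name with OLFM2 and 10 under one with PKP2, while every label gives Olfm2, and the labels were used.

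Of 28846 probes 6640 controls were left out, and of the other 22206 probes 19572 carry 1 gene symbol, 0 several and 2634 none. Where a gene had several probes (55 genes) its brightest one over all arrays was kept, giving 19505 genes, all matched by Entrez identifier to the RefSeq table of GRCm38.p6. In R 4.3.3 with limma 3.58.1, a mean was fitted for each of the 4 groups over all 20 arrays (16 residual degrees of freedom), with no covariate and 5 contrasts. P-values are moderated and two-sided with Benjamini-Hochberg adjustment over all genes, and an adjusted p under 0.05 is a call. SE is the moderated one, intervals are at 95%. The fit was tested on simulated data in which genes varied independently, so effects of a shared tissue mixture were not covered. Precision is limited by the number of arrays.

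The members and the pathway and marker lists were chosen with earlier results of these data known. Genes named are the 10 enzymes, Olfm2, other pathway genes called in any comparison, Bcat1, Bckdk and Ppm1k, and the 8 genes most like the mean of the enzymes. The alternatives are given in the closing section, and the exclusions of arrays by hepatocyte or skeletal muscle mean were chosen after seeing the data.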

Additional observations from a re-analysis of the deposited data

Results flagged for a closer look

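In each of the 4 groups the highest and lowest array of every member was compared with its neighbours, 40 groups of 5 values in all, by Dixon's ratio of the gap to the range. The Pcca signal on sc317KO, 9.15, stood apart from the other knockout sc arrays, of which the nearest was at 9.01, with a gap of 0.72 of the range beside a critical value of 0.71. Chance flags about 1 in 20 groups.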

How the results depend on the processing

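The number of the 10 enzymes called in limma was compared over the alternatives to the fit. In knockout against wild-type g it was 10 in the main setting and on leaving out single arrays (10 to 10), 7 with the hepatocyte mean as covariate or with the means of 3 tissues (skeletal muscle, lymphocyte and hepatocyte) together, and 0 with the macrophage mean, with the mature adipocyte mean and without the arrays whose hepatocyte mean was above 7, where 43 genes were called in all. In sc it was 2, and 0 with the hepatocyte, the 3 means together, the macrophage or the mature adipocyte covariate and without the arrays with a skeletal muscle mean above 7, 1 without those with a hepatocyte mean above 7, and 0 to 3 on leaving out single arrays (Bckdha gained a call without sc306KO or sc307WT). The difference between depots had 0 in every alternative run. Wild-type g against sc had 9 (9 to 9 without single arrays), 5 with the 3 means together and 0 with the macrophage or mature adipocyte covariate. Knockout g against sc had 1 (0 to 2 without single arrays), and 0 with the macrophage or mature adipocyte covariate, without the hepatocyte-high or muscle-high arrays and with only the 2 groups in the fit. Calls over all genes changed too with the macrophage and the mature adipocyte covariate. They went from 2200 to 1 and 9 for the knockout in g and from 132 to 25 and 174 in sc. Between the depots they went from 3468 to 1 and 10 in wild type and from 806 to 35 and 489 in knockout. The cause of these changes was not tested, except that leaving out arrays leaves fewer samples. The replicate block (the number in the title, consensus correlation 0.0863) gave 2, 10, 0, 9 and 1 calls in these 5 comparisons. Residuals of same-numbered sc and g arrays correlated between -0.46 and 0.14 (median 0.01), and 3 of 10 numbers matched their own best, so the block stands only here. Quantile normalization, centred medians, all probes of a gene, a filter on dim genes, array weights and a trended robust fit left the 5 counts within 1.5 times those of the main fit (sc 2 or 3). No alternative reversed a member in knockout against wild-type g. Differences not called under the setting reversed as follows. With the macrophage covariate, Bckdhb was -0.0883 for the knockout in sc. For g against sc in wild type with it, Bcat2 was 0.46, Bckdhb 0.24, Acadsb 0.0912, Hsd17b10 0.12 and Aldh6a1 0.0218. In knockout with it, Bcat2 was 0.22, Bckdhb 0.40, Dbt 0.17, Hibch 0.0467 and Pccb 0.0441. With the mature adipocyte covariate, Bckdhb was -0.0241 for the knockout in sc and Slc25a44 -0.11 in g. The difference between depots with it was -0.19 for Ivd and -0.0618 for Pcca. For g against sc in wild type with it, Bcat2 was 0.54, Bckdhb 0.0277, Dbt 0.0037, Pcca 0.0151, Slc25a44 0.11, Hibadh 0.0785 and Aldh6a1 0.0069. In knockout with it, Bcat2 was 0.10, Bckdhb 0.0662 and Dbt 0.0614. Without the hepatocyte-high arrays the difference between depots was -0.16 for Mccc1 and -0.0944 for Mccc2, and without the muscle-high arrays 0.0480 for Bcat2. Leaving out single arrays moved Bcat2 between -0.185 and 0.0172 for the difference between depots and between -0.110 and 0.0170 for wild-type g against sc.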
